A study of Rattus norvegicus with 8 samples.

Results

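Hmox1, Fth1 and Cp, a set of genes that break down heme, store the iron it releases and oxidise iron on its way out of cells, were followed in the lower spinal cord of rats after a cut higher up. The set holds 3 of the 32883 Ensembl gene identifiers in the deposited table: ENSRNOG00000014117 (Hmox1), ENSRNOG00000022619 (Fth1) and ENSRNOG00000011913 (Cp). The genes were picked by function with the difference between injured and uninjured libraries already in view. Their levels in the 2 groups are therefore given as a description, without a p-value. The symbols came with the choice of identifiers, and the table itself lists identifiers only.

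The animals were Sprague Dawley rats, an outbred laboratory strain. In the injured group the cord had been hemisected (cut on one side) at thoracic level 9, and lower lumbar cord was taken 4 days later. The other group had no spinal cord injury, and the labels mention neither a sham operation nor age or sex. Each group has 4 libraries, made with CEL-Seq2, which counts the 3' end of each polyadenylated transcript once by means of a random molecular identifier. The labels do not say whether each library is 1 animal or a pool, nor which side of the cord was used. No transgene or other treatment is named for either group.

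Heme is an iron-bearing ring, toxic when free, that is released when blood proteins and cytochromes are broken down. Hmox1 encodes the inducible heme oxygenase, which opens the ring into biliverdin, carbon monoxide and ferrous iron, and it is a classical target of oxidative stress and of the heat shock response. Fth1 encodes the heavy chain of ferritin, which oxidises ferrous iron and locks it into the ferritin shell, and its translation is held back by an iron responsive element when iron is scarce. Cp encodes ceruloplasmin, a copper-bearing ferroxidase that works beside the iron exporter ferroportin. In rat brain and cord much of it is anchored to the surface of astrocytes.

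Libraries held 153060 to 378725 molecules in the injured group and 119808 to 405537 in the uninjured group. Replicate 3 was the shallowest library of each group. There the 10 genes with the highest counts held 18.5% (injured) and 24.6% (uninjured) of all molecules, against 8.88% to 13.3% in the other 6 libraries. The highest count was 3989 to 4080 in every library, near the ceiling described below. This share therefore depends on depth and does not by itself show a different composition. Levels below are CPM: counts relative to the tested molecules of a library, after TMM scaling, a method that aligns libraries on the bulk of their genes. Brackets after a count or a ratio give the exact 95% interval, which covers counting error only. Tissue and cell type markers could not be looked up by symbol, so the labelled tissue was not checked against them.

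The degradation enzyme showed the widest separation among the members that could be fitted. Hmox1 gave 94, 79, 9 and 74 molecules in injured replicates 1 to 4, against 21, 9, 3 and 15 in uninjured replicates 1 to 4. In CPM this was 259.7, 211, 70.1 and 312 in injured libraries and 54.0, 39.65, 34.8 and 36.0 in uninjured libraries. Every injured library lay above every uninjured one, but injured replicate 3 stood far below the other injured libraries and close to the highest uninjured library. Its interval, from 32.1 to 133 CPM on 9 molecules, takes in the values of all 4 uninjured libraries.

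Hmox1 averaged 213 ± 104 CPM in injured and 41.1 ± 8.83 CPM in uninjured libraries (SD, n = 4 each). The spread was 48.8% of the mean in injured and 21.5% in uninjured libraries. The quasi-likelihood fit of edgeR over all genes gave a log2 fold change of 2.36 (standard error 0.37), a 5.14-fold higher level after injury. By size it ranked 9 of 4159 tested genes, while the median log2 fold change of all tested genes was -0.01. Leaving out 1 library at a time moved the value between 2.16, without injured replicate 4, and 2.60, without injured replicate 3. In whole tissue, as here, more transcript in each cell and more cells that carry it cannot be told apart.

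The storage subunit differed far less. Fth1 gave 100, 90, 28 and 51 molecules in injured replicates 1 to 4, against 55, 47, 14 and 64 in uninjured replicates 1 to 4. In CPM this was 276, 240.5, 218 and 215 in injured libraries and 141, 207, 162 and 154 in uninjured libraries. The groups touched without overlapping: the lowest injured library, replicate 4, was just above the highest uninjured library, replicate 2. That gap depends on the scaling. When counts were set against all molecules of a library without further scaling, injured libraries ran from 183 to 279 CPM and uninjured libraries from 117 to 197 CPM, so that the groups overlapped.

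Fth1 averaged 237.5 ± 28.2 CPM in injured and 166 ± 28.6 CPM in uninjured libraries (SD, n = 4 each). The fitted log2 fold change was 0.53 (standard error 0.23), a 1.45-fold higher level that ranked 377 of 4159 tested genes. Without injured replicate 1 the value was 0.45, and without uninjured replicate 2 it was 0.66. Injured libraries varied by 11.9% of their mean and uninjured libraries by 17.3%, both less than for Hmox1. In the uninjured group Hmox1 rests on 3 to 21 molecules per library and Fth1 on 14 to 64, so counting error weighs more on Hmox1. Whether the genes differ in steadiness beyond counting error was not tested. Fth1 has close relatives in the rat genome: the RefSeq table for assembly GRCr8 lists 5 pseudogenes named after it and 1 gene named as Fth1-like. The sources used here do not say how reads shared with such copies were counted, and the Fth1 counts are uncertain to that extent.

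**Figure D1:**
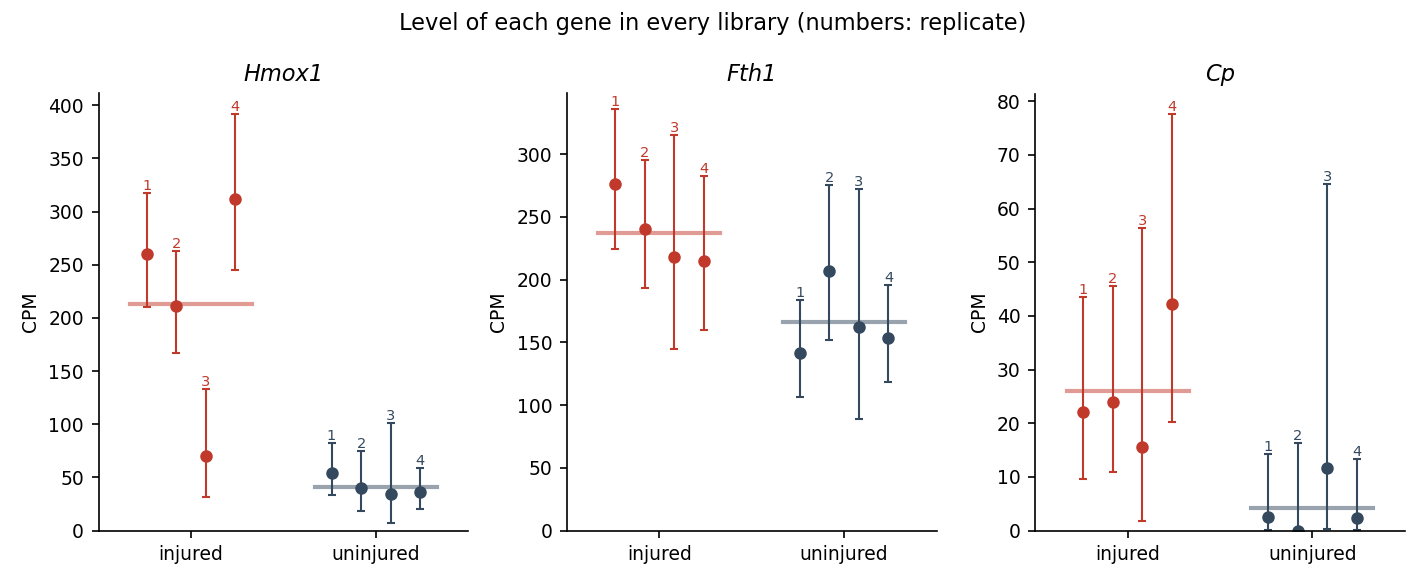
Level of Hmox1, Fth1 and Cp in CPM (vertical axes, each from 0) in 4 injured and 4 uninjured libraries. Points are libraries with their replicate number, bars are exact 95% counting intervals, and horizontal lines are group means. For Hmox1, injured replicate 3 at 70.1 CPM lies near the uninjured libraries, for Fth1 the groups nearly meet, and for Cp uninjured libraries hold 0 or 1 molecule each.

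The ferroxidase of iron export was rare in both groups. Cp gave 8, 9, 2 and 10 molecules in injured replicates 1 to 4, against 1, 0, 1 and 1 in uninjured replicates 1 to 4. In CPM this was 22.1, 24.05, 15.6 and 42.2 in injured libraries and 2.57, 0, 11.6 and 2.40 in uninjured libraries. All injured values were above all uninjured values, although the pair of shallow libraries numbered 3 differed by a single molecule. The limit that a count of 0 allows, 3 molecules, lies between 8.02 and 23.4 CPM in injured libraries and between 7.20 and 34.8 CPM in uninjured libraries. Injured replicate 3 and all 4 uninjured libraries were below their limit. The limit of uninjured replicate 3, 34.8 CPM, is above the values of injured replicates 1, 2 and 3, so a full separation of the groups was not resolved at this depth.

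Cp did not pass the filter on low counts and was not among the tested genes. Summed over libraries, 29 molecules in the injured group stood against 3 in the uninjured group. Relative to the scaled totals this is a ratio of 9.82 (3.04 to 50.4), or 3.30 on the log2 scale. The width of the interval comes from the 3 uninjured molecules. In a fit without any filter, the log2 fold change was 3.07. Leaving out uninjured replicate 3, the shallowest library, moved the summed ratio to 3.76 on the log2 scale, and leaving out uninjured replicate 2, which had no Cp molecule, moved it to 2.96.

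The only promoter in the RefSeq table used here for the 3 genes was that of Cp, shown as the sequence before the start site of the rarest member. The window is the 250 bases before the annotated start on the plus strand of GRCr8, chr2:104368420-104368669. Capitals mark matches to the TATA box letters TATAAA, 1 on each strand and overlapping one another.

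Cp promoter: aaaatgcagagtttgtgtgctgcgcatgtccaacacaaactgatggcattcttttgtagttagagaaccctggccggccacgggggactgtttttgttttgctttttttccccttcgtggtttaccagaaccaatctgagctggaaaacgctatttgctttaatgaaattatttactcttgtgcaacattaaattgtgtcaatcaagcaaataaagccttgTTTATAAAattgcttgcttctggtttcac

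The match on the gene strand begins 27 bases before the start (position -27), and 12.9% of 33469 windows of this length hold the letters on either strand. No match was found on either strand for the antioxidant response element TGACNNNGC, held by 10.1% of windows, for the hypoxia response element ACGTG, held by 16.6%, or for the STAT site TTCNNNGAA, held by 7.67%. The letters of an iron responsive element loop with its bulged C, searched on the gene strand in the 50 bases after the start, were absent too and are held by 1.57% of windows. The annotated extent of Cp in GRCr8 begins before this window, and 4 transcripts are listed for the gene. It also overlaps Hps3, and Hmox1 overlaps the uncharacterised LOC134483111, while no listed gene overlaps Fth1. These overlaps are those of GRCr8, while the submitters name Rnor_6.0 for the counts, and they need not be the same there. The sources used here do not say whether counting used strand. How reads from stretches shared by overlapping genes were assigned is therefore not known.

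Of the 3 members, 2 passed the filter and 1 of these, Hmox1, was called higher after injury. Among all 4159 tested genes 41 were called higher, or 0.986%, and 0% were called lower (quasi-likelihood test of edgeR, p adjusted after Benjamini-Hochberg and under 0.05). Before adjustment, 222 genes were higher and 104 lower at p under 0.05 in edgeR, and DESeq2 called 49 higher and 2 lower at the adjusted threshold. Hmox1 was called in each of the 8 fits that left out 1 library, and Fth1 in 0 of them. These fits share most of their libraries, and they called 23 to 77 genes in all, with 3926 to 4705 tested. With the replicate number as a block, 2.26% of tested genes were called higher and 0.385% lower, and again Hmox1 was called and Fth1 was not. Without the filter, 0.725% of 12968 genes were called higher, among them Hmox1 and Cp, and 0.0308% were called lower. DESeq2 without the filter called 56 of the 12968 genes higher and 3 lower, and it called Hmox1 but not Cp. Since the members were chosen on this contrast, these counts describe them and nothing is read from them.

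**Figure D2:**
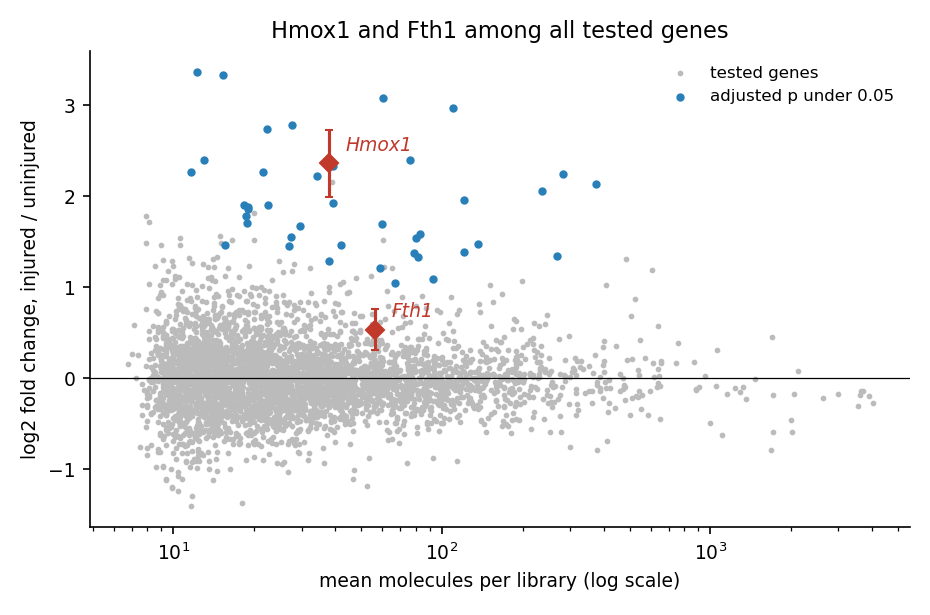
Log2 fold change of injured over uninjured libraries (vertical axis) against mean molecules per library (horizontal axis, log scale) for 4159 tested genes in grey, with the 41 called genes in blue. Hmox1 (2.36) and Fth1 (0.53) are red diamonds with bars of 1 standard error. Hmox1 lies among the called genes and Fth1 within the upper part of the bulk.

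In CPM, all injured libraries were above all uninjured libraries for Hmox1 and, under TMM scaling but not against library totals, for Fth1. The same order held for Cp, but it rests in number 3 on 2 against 1 molecules, both below the 3-molecule limit, and is not resolved at this depth. Such an order was found for 3.08% of the 4159 tested genes, where 1.78% had every injured library below every uninjured one, and for 2.12% of the 12968 genes with at least 1 molecule, the set to which Cp belongs. Ranks within a library need no scaling factor but depend on how many genes were detected, so they are given as a share of the detected genes, where a low share is a high rank. By molecule count, Hmox1 stood at 7.05%, 8.70%, 27.8% and 6.23% of the ranked genes in injured replicates 1 to 4, against 28.6%, 37.7%, 47.9% and 36.9% in uninjured replicates 1 to 4. Injured replicates 1, 2 and 4 were far from the uninjured libraries. Injured replicate 3 and uninjured replicate 1 were nearly level in this share, at plain ranks of 2346 and 2899. Fth1 stood at 6.51%, 7.50%, 10.3% and 9.38% in injured replicates 1 to 4, against 13.0%, 9.88%, 15.2% and 11.7% in uninjured replicates 1 to 4. In this share the groups overlapped, since uninjured replicate 2 had a lower share than injured replicate 3. By plain rank they did not: Fth1 ranked 666 to 893 in injured and 915 to 1324 in uninjured libraries. The overlap thus depends on dividing by the number of detected genes, which was lower in the shallow injured replicate 3.

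Same-numbered libraries of the groups deviate together across genes, though weakly for number 3, so ratios are also given within numbers. Some libraries of unequal number do so too. Pairs were not told apart from a grouping of numbers 1 and 2 against 3 and 4, and the labels state no pairing. For Hmox1 the injured to uninjured ratio of CPM was 4.81 (2.97 to 8.13), 5.32 (2.67 to 12.1), 2.02 (0.503 to 11.6) and 8.67 (4.93 to 16.3) in numbers 1 to 4. The ratio was above 1 in every number, but for number 3, on 9 against 3 molecules, the counting interval included 1. Each interval sets 1 library against 1 and covers counting error only, so it does not test an effect of injury. For Fth1 it was 1.96 (1.39 to 2.77), 1.16 (0.807 to 1.69), 1.34 (0.685 to 2.76) and 1.40 (0.95 to 2.06). Here too the ratio was above 1 in every number, but the counting interval included 1 in numbers 2, 3 and 4. For Cp, 8 against 1, 9 against 0, 2 against 1 and 10 against 1 molecules allow no ratio of use in single numbers. Within numbers 1 and 2 alone the log2 fold change was 2.29 for Hmox1 and 0.60 for Fth1, and within numbers 3 and 4 alone it was 2.48 for Hmox1 and 0.45 for Fth1. Hmox1 was not called in numbers 3 and 4 alone, where 3 genes were called in all.

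**Figure D3:**
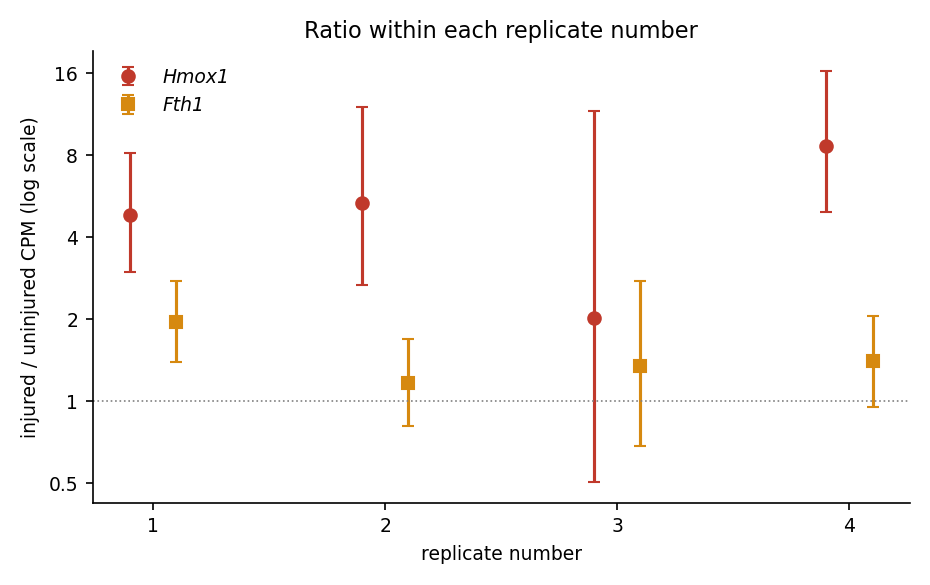
Injured to uninjured ratio of CPM for Hmox1 (circles) and Fth1 (squares) within each replicate number (horizontal axis). The vertical axis is a log scale, bars are exact 95% counting intervals and the dotted line marks equal levels. Hmox1 is above Fth1 in all 4 numbers, with ratios of 2.02 to 8.67 against 1.16 to 1.96.

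Molecules of one gene can also be set against those of another inside a library, which removes depth and scaling. CEL-Seq2 counts do not grow with transcript length, and the ratio is used only to compare libraries. There were 0.94, 0.878, 0.321 and 1.45 Hmox1 molecules per Fth1 molecule in injured replicates 1 to 4, against 0.382, 0.192, 0.214 and 0.234 in uninjured replicates 1 to 4. The mean was 0.898 ± 0.462 in injured and 0.256 ± 0.086 in uninjured libraries (SD, n = 4 each). Injured replicates 1, 2 and 4 lay above all uninjured libraries, while injured replicate 3 lay below uninjured replicate 1, so on this measure the groups overlapped. The interval of injured replicate 3, from 0.133 to 0.701, reaches down to below all uninjured values and up to about the lower bounds of injured replicates 1 and 2, which were 0.702 and 0.641.

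**Figure D4:**
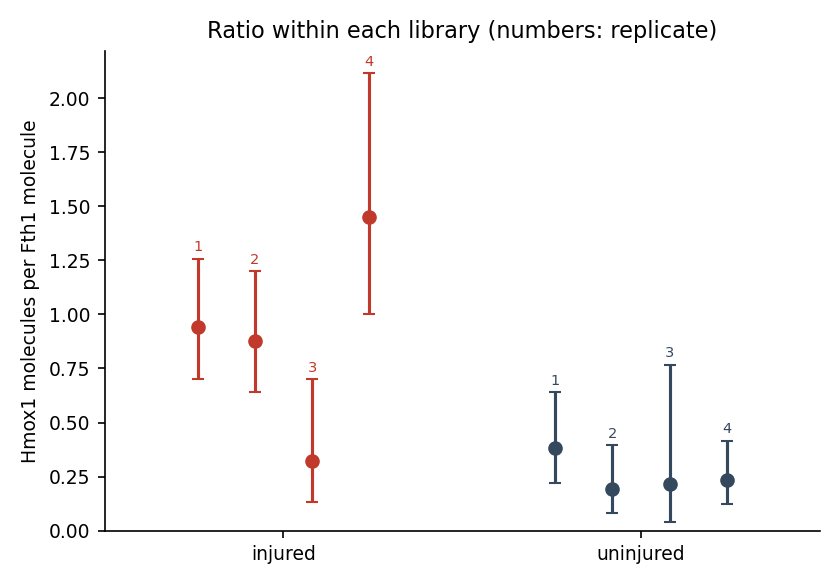
Hmox1 molecules per Fth1 molecule (vertical axis, from 0) within each of 4 injured and 4 uninjured libraries. Points are libraries with their replicate number and bars are exact 95% counting intervals. Injured replicates 1, 2 and 4 lie at 0.878 to 1.45 and the uninjured libraries at 0.192 to 0.382, and injured replicate 3 lies at 0.321, within the range of the uninjured libraries.

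The number of random identifiers sets a ceiling on these counts. The top gene of a library had between 3989 and 4078 molecules in injured and between 4006 and 4080 in uninjured libraries, just under the number of identifiers that 6 random bases can form. The sources used here do not state the length of the identifier, and 6 bases are assumed for the limit below. None of the 3 genes came near that limit. The highest member count, 100 molecules of Fth1 in injured replicate 1, was 2.44% of it, and a correction for repeated identifiers would add 1.24% to that count. Hmox1 reached 2.29% of the limit and Cp 0.244%. With the correction applied to all genes, the log2 fold change was 2.37 for Hmox1 and 0.53 for Fth1, and the summed ratio of Cp was 3.29 on the log2 scale.

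**Figure D5:**
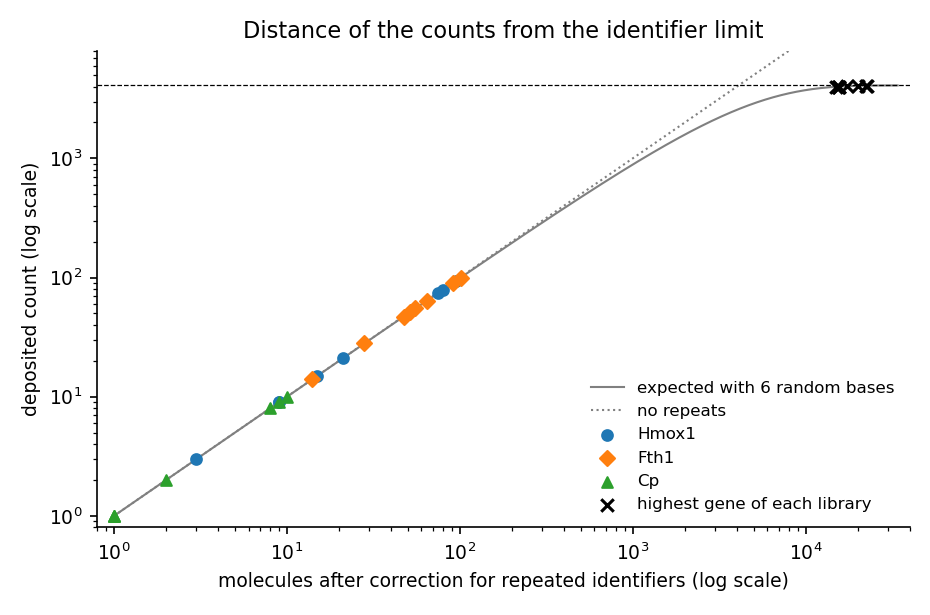
Deposited count (vertical axis, log scale) against the number of molecules after correction for repeated identifiers (horizontal axis, log scale) for each member in each library with at least 1 molecule. The solid curve is the relation expected with identifiers of 6 random bases, the dotted line is equality and the dashed line is the number of such identifiers. All points lie on the curve by construction. The members are on its straight part, up to 100 molecules, while the highest gene of each library (crosses, 3989 to 4080) lies on the plateau.

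For Hmox1, the identifier with the most similar profile was ENSRNOG00000012804, among 1072 tested genes averaging at least 50 molecules per library. Likeness was the root mean square difference between centred log2 CPM profiles over 8 libraries, which includes the difference between the groups. It was 0.61 for this pair, against a median of 1.19 for all candidates. ENSRNOG00000012804 averaged 672 ± 232 CPM in injured and 176 ± 66.7 CPM in uninjured libraries (SD, n = 4 each). Like Hmox1, it was lowest of the injured libraries in replicate 3, at 444 CPM. Other libraries were ordered differently. It was highest of the injured in replicate 2 (943 CPM), where Hmox1 was highest in replicate 4. In uninjured replicate 1 it was lowest of its group (103 CPM), while Hmox1 was highest there. The identifiers ranked 2 and 3 were nearly as close to Hmox1, at 0.65 and 0.66. For Cp the nearest was ENSRNOG00000011559, at 0.23 against a median of 0.83. It averaged 739 ± 169 CPM in injured and 375 ± 132 CPM in uninjured libraries (SD, n = 4 each). The Cp profile was flattened by the 3 molecules added before taking logarithms, so its likeness does not concern the size of the difference. The order of libraries differed too, since ENSRNOG00000011559 had 553 CPM in injured replicate 3 and 568 CPM in uninjured replicate 3.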

How the data were processed

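Levels come from 8 CEL-Seq2 libraries of rat lower spinal cord in 1 table. The authors deposited counts: molecules per Ensembl identifier, as whole numbers, not normalized. HISAT2 2.0.4, HTSeq 0.6.0 and build Rnor_6.0 are named per the submitters' processing notes. The sources used here do not state how identifiers were collapsed, the annotation release or read filters. Of 32883 identifiers, 19915 had no molecule.

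The 3 members and all gene and motif lists were chosen with earlier results of these data known. The RefSeq table of 47357 genes (GRCr8) pairs none of them with an Ensembl identifier. The planned lists of further heme and iron genes, antioxidant genes and cell type markers were therefore not analysed here. By the rule for named genes, the text names the 3 members and, without symbols, the identifier nearest in profile to Hmox1 and to Cp.

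Genes were filtered with filterByExpr (minimum count 10, minimum total 15), which left 4159. They were fitted with edgeR 4.0.16 in R 4.3.3 (TMM, quasi-likelihood, robust, no covariate). The threshold was a Benjamini-Hochberg adjusted p of 0.05, two-sided. Standard errors were derived from the F statistic. The procedure was tested on simulated data. Cp failed the filter, so the planned fit was replaced by the ratio of summed counts. DESeq2 1.42.0, limma-voom (limma 3.58.1), other scalings and filters, thinning and left-out libraries were alternatives. Likeness was computed on log2 CPM (prior count 3), and plots used matplotlib 3.10.9.

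Libraries carry numbers 1 to 4 in the titles of both groups. Deviations from group means correlated across genes at 0.39, 0.36, 0.168 and 0.45 for equal numbers 1 to 4. Injured 1 with uninjured 2 reached 0.174 and injured 2 with uninjured 1 reached 0.238, both above equal number 3. The remaining unequal numbers ran from -0.388 to 0.157. Pairs and a grouping of numbers 1 and 2 against 3 and 4 were therefore not told apart. The ratios within numbers and the block fits take the numbers as pairs on the data, not on a stated design. The main fit had no block. No library was a copy of another: the closest within a group had a chi-square per degree of freedom of 3.23. The labels do not say that libraries are separate animals, and p-values measure the spread between libraries only.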

Additional observations from a re-analysis of the deposited data

How the results depend on the processing

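The log2 fold change of Hmox1 moved by less than the spread between libraries in all 26 alternatives. It ran from 2.07 (all libraries thinned to 119808 molecules, median of 10 draws) to 2.60. That of Fth1 did so in all 26, from 0.45 to 0.66. The spread was the pooled SD of single libraries in log2 CPM, 0.65 for Hmox1 and 0.19 for Fth1. This is a loose limit, since the alternatives reuse most of the same data, so staying within it is not a test. None of the 3 genes changed direction. With the replicate block, the log2 fold change was 2.49 for Hmox1 and 0.55 for Fth1. The block changed the call of neither, where 2.26% of tested genes were called higher and 0.385% lower. Since the members were chosen on this contrast, nothing is read from these calls. For Cp, 18 of 21 values stayed within that spread, a pooled SD of log2 CPM (prior count 3) that was 0.43 for Cp. The added molecules flatten this SD but not the summed ratios, so the comparison is a rough one. The 21 values also mix summed ratios with fold changes fitted without the filter. The summed ratio of Cp moved to 3.84 on the log2 scale without both libraries numbered 3 and to 3.84 in numbers 1 and 2 alone. It ran from 2.96 to 3.76 when 1 library was left out. The fits with a block or a covariate, DESeq2 and limma-voom gave no Cp value under the filter. Without the filter, chosen after seeing the data, Cp had a log2 fold change of 3.17 with the replicate block and 3.21 in DESeq2.

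The count of 41 called genes became 98 with no filter (94 higher, 4 lower), 110 with the replicate block (94 higher, 16 lower) and 72 with numbers 1 and 2 against 3 and 4 as a term. It was 62 without both libraries numbered 3, 86 in numbers 1 and 2 alone, 3 in numbers 3 and 4 alone and 22 after thinning, where 2189 genes could be tested in the draw nearest the median. Leaving out 1 library gave 23 to 77 calls: 23 without uninjured replicate 1, 23 without uninjured replicate 4 and 77 without uninjured replicate 3. Added after seeing the data, no filter with the replicate block gave 199, and the replicate block without both libraries numbered 3 gave 383. The causes were not tested beyond the fewer genes or libraries that enter some of these fits. At these depths 3 molecules correspond to 7.20 to 34.8 CPM, which limits what can be said of Cp.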
